A study of Bos taurus with 2 samples.

Results

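The genes described here make, store and esterify lipids: 57 genes that were listed by symbol for adipocyte identity and fat storage, triglyceride synthesis, fatty acid synthesis, wax and sterol esters, and cholesterol synthesis. A gene was found when a noncontrol probe carried a RefSeq accession of its symbol, which gave 45 of the 57 genes with 109 probes, among 9647 genes named in this way on the array. ADIPOQ, PLIN4, LPIN1, MOGAT2, FASN, ACACB, ELOVL3, FADS1, AWAT1, AWAT2, SREBF2 and HMGCS1 were not analysed here. The RNA came from nose (muzzle) tissue of 2 female HanWoo cattle, both 30 months old, 1 with a yellow nose (light-muzzle) and 1 with a black nose (dark-muzzle), whose samples are called the light tissue and the dark tissue below. Each was read on 1 Agilent 1-colour array of the same slide. No array repeats a group, so every difference below is one between 2 animals and 2 pieces of whole tissue, with no test, and its precision is limited by the number of arrays.

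Mammalian skin keeps lipid in several compartments. Adipocytes under the dermis hold triglyceride in a large droplet coated with perilipins, and release it through lipases. Sebocytes of the sebaceous gland fill with wax esters, triglyceride and squalene and then burst, whereas keratinocytes of the outer epidermis turn very long fatty acids into ceramides and take cholesterol for the water barrier. Cholesterol itself is built from acetyl-CoA through mevalonate and squalene, and the genes of that route are switched together by the SREBP factors.

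Levels are log2 processed signals relative to the 75th percentile of the noncontrol spots of each array, so that 0 is the level of that percentile, and they can be compared between the cows for 1 gene but not between genes. A ratio is the log2 level of the dark tissue minus that of the light tissue, averaged over the probes of a gene that were well above background in both. The lowest level well above background was -5.78 on the light-muzzle array and -5.81 on the dark-muzzle array. Of the 45 genes, 43 were measured in both tissues, LEP only in the dark tissue, which gave a lower bound, and MOGAT1 was not well above background in either tissue. For the 97 probes of these genes measured in both tissues, the error that the scanner software attached to a log2 ratio lay between 0.20 and 0.35, and it covers the spot alone and not the animal. Different probes of a gene had a median SD of 0.18 in the log2 ratio over the 30 lipid genes with several measured probes, and 25 of these 30 had all their probes on the same side of 0.

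At 2-fold, 12 of the 44 lipid genes with a ratio (27.3%) were higher in the dark tissue and 2 (4.55%) were lower. Among all 8914 named genes with a ratio, 9.86% were at least 2-fold higher and 6.47% at least 2-fold lower. At 1.5-fold 43.2% were higher (19.8% of all genes) and 6.82% lower (13.6%), and at 3-fold 13.6% were higher (4.69%) and 0 lower (3.03%). The median log2 ratio of the 44 genes was 0.48, against 0.065 over all genes, and 36 of the 44 lay above 0, against 55.2% of all genes. The higher genes were CD36, FAR2, DGAT2, LPL, SOAT1, LEP, ELOVL7, ELOVL1, PPARG, CIDEA, FADS2 and PLIN2. The lower ones were CIDEC and THRSP. LEP counts among the higher genes at each of these thresholds through a lower bound alone, at least 3.01-fold from 1 of its 3 probes. By role, 6 of 15 storage genes, 3 of 10 fatty acid genes and 2 of 3 ester genes were at least 2-fold higher. The counts were 1 of 5 for triglyceride genes and 0 of 11 for cholesterol genes. These lists are short, and whether a role differs from another or from the 9.86% of all genes was not tested.

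**Figure D1:**
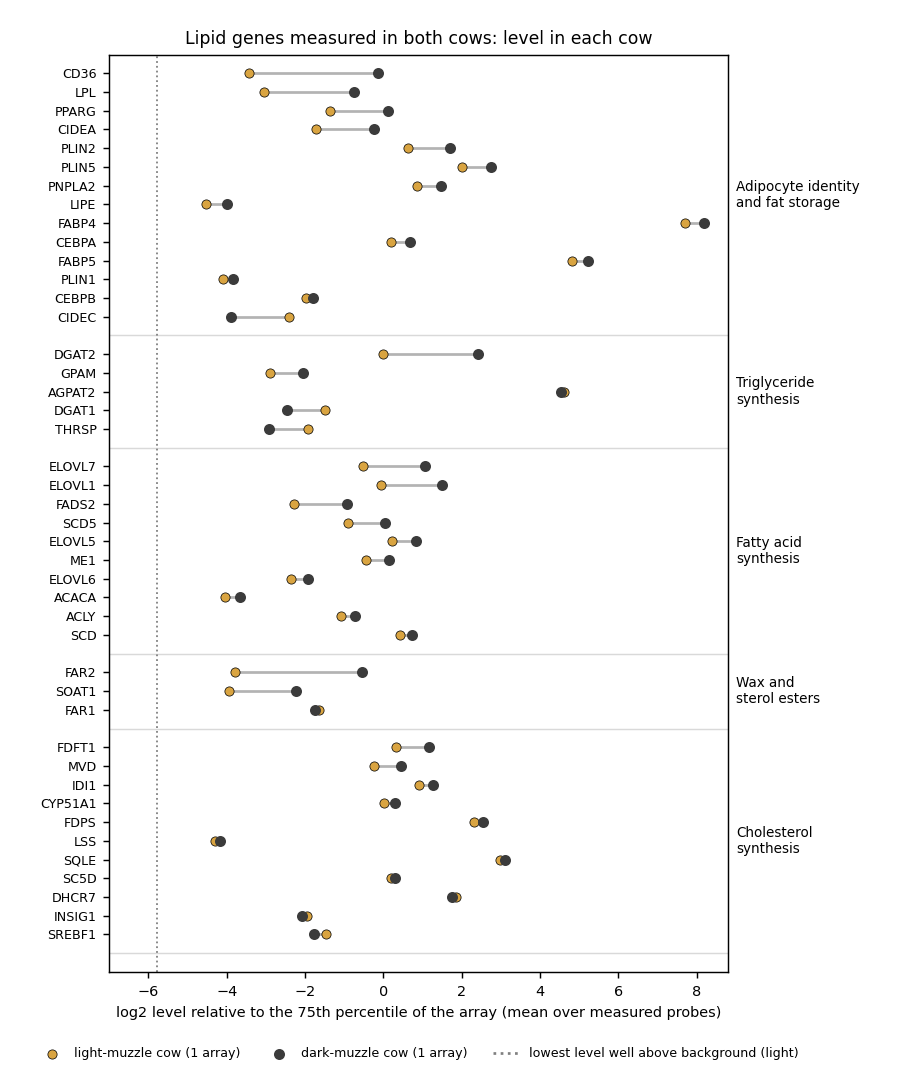
Log2 level of the 43 lipid genes measured in both tissues, as the mean over their measured probes, in the light tissue (yellow points) and the dark tissue (dark points), 1 array each with no error between animals, ordered by ratio within each role. The lines are longest for CD36 (ratio 3.29) and FAR2 (3.24), and short throughout the cholesterol genes.

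The genes that define adipocytes did not all differ in the same direction. LEP encodes leptin, the hormone that fat cells release. Only 1 of its 3 probes was well above background, in the dark tissue alone at a log2 level of -4.19, which puts it at least 3.01-fold higher there. PLIN1, the perilipin of the large adipocyte droplet, had levels of -4.10 in the light and -3.84 in the dark tissue from 1 of its 2 probes, a ratio of 0.26. CIDEC, which fuses droplets in white adipocytes, went the other way, from -2.41 to -3.89, and was 2.79-fold lower in the dark tissue. It also rests on 1 probe, the second being above background in neither tissue. FABP4, a fatty acid carrier of adipocytes that endothelial cells and macrophages make too, was bright in both tissues at 7.70 and 8.18, with a ratio of 0.48. The genes are therefore described by their roles rather than as a cell type.

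The largest differences among the storage genes lay in fatty acid uptake. CD36, the surface receptor that takes up long fatty acids, had levels of -3.43 in the light tissue and -0.15 in the dark tissue, which is 9.76-fold higher. Its 2 probes had nearly the same ratio, 3.22 and 3.36, although their levels were far apart, and it stood at place 86 from the top of the 8914 genes. LPL, the lipase that frees fatty acids from lipoproteins in blood capillaries, went from -3.05 to -0.74 and was 4.95-fold higher. Of its 3 probes, 2 had ratios of 2.81 and 2.78 and the dimmest, at -4.96 in the light tissue, had one of 1.33. FABP5, the fatty acid carrier of the epidermis, differed little, with 4.82 and 5.23 and a ratio of 0.40 over 3 probes.

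Muscle, endothelium and macrophages use these genes too, and the muscle markers were higher as a set. Skeletal muscle takes up fatty acids through CD36 and LPL, and all 11 muscle markers that were found of 13 were at least 2-fold higher in the dark tissue, with ratios between 2.24 and 3.50 and a median of 3.03. Their summed signal was 248 times the 75th percentile in the light tissue and 1540 times in the dark tissue, and each had a probe well above background in both. The muscle fatty acid carrier FABP3, counted among them, was 10.2-fold higher. Of the 8 endothelial markers 7 were found, all with ratios above 0. At 2-fold 2 of the 7 (28.6%) were higher, against 9.86% of all genes. Their ratios ran from 0.26 for KDR to 1.33 for CLDN5, with a median of 0.75 and summed signals of 7.45 and 16.2. The 7 macrophage markers found of 8 had a median of -0.25 and summed signals of 6.71 and 6.48, and none differed by 2-fold. The part of muscle and endothelium in the CD36 and LPL ratios was not tested, and more cells of a type cannot be told apart from more RNA per cell in whole tissue.

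The droplet coat proteins and lipases were higher by less. PLIN2, the perilipin found on droplets of almost every cell, went from 0.63 to 1.70 and was 2.10-fold higher, just past 2-fold. PLIN5, the perilipin of muscle and other tissues that burn fat, went from 2.02 to 2.74, a ratio of 0.72. CIDEA, a droplet protein of brown adipocytes, sebocytes and mammary cells, was 2.76-fold higher, and its 4 probes fell into a pair near 0.9 (0.91 and 0.93) and a pair near 2 (1.93 and 2.10). The triglyceride lipase PNPLA2 had a ratio of 0.61. The hormone-sensitive lipase LIPE had one of 0.54 from its 1 measured probe, whereas a further probe, well above background only in the dark tissue, had a bound of at least 3.52-fold.

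Of the regulators of adipogenesis, PPARG stood apart. This nuclear receptor, which switches on fat storage genes in adipocytes and sebocytes, went from -1.36 to 0.12 and was 2.78-fold higher, with 2 probes at 1.47 and 1.48. CEBPA, a factor that acts with it, had a mean ratio of 0.48 from probes that disagreed. The bright one, at 5.40 in the light tissue and 4.96 in the dark tissue, had a ratio of -0.44 and the dim one, at -5.01 and -3.61, had 1.39. CEBPB was divided in the same way, at -0.49 for its bright and 0.86 for its dim probe. For both factors the sign therefore depends on the probe.

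**Figure D2:**
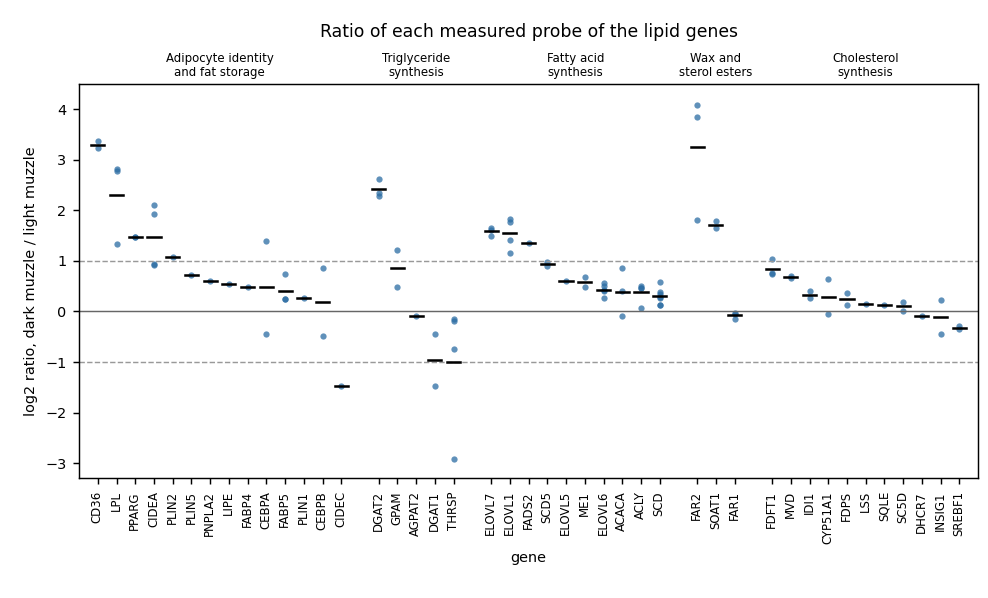
Log2 ratio (dark-muzzle over light-muzzle) of each of the 97 measured probes (points) of the lipid genes, with the mean of a gene as a bar and 2-fold as dashed lines. Probes lie close together for CD36, PPARG, DGAT2, ELOVL7 and SOAT1, and far apart for FAR2, THRSP, CEBPA and CEBPB.

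In triglyceride synthesis the enzymes for the last step differed in direction. DGAT2 and DGAT1 are unrelated proteins that both turn diacylglycerol into triglyceride. DGAT2 went from -0.0008 to 2.41 and was 5.32-fold higher in the dark tissue, with 3 probes between 2.29 and 2.62. DGAT1 went from -1.5 to -2.46, a ratio of -0.96, with probes at -0.44 and -1.48, and a further probe above background only in the light tissue had a bound of -0.55. Upstream of them, GPAM, which adds the first fatty acid to glycerol phosphate, had a ratio of 0.85, with probes at 0.48 and 1.21. AGPAT2, which adds the next, had levels of 4.62 and 4.52 and a ratio of -0.10. THRSP, a small protein that accompanies fatty acid synthesis in lipid-making tissue, had a mean ratio of -1.0 that came from 1 probe. That brightest probe went from 0.74 to -2.17, a ratio of -2.91, while the other 3 had ratios of -0.75, -0.19 and -0.15. THRSP lay just inside the 2-fold limit and DGAT1 just outside it.

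All 10 fatty acid synthesis genes that were found had ratios above 0, with a median of 0.59. The enzymes found that supply palmitate synthesis differed by less than 1.5-fold between the tissues. FASN, which builds palmitate, was not analysed here. ACLY, which makes cytosolic acetyl-CoA, had a ratio of 0.38, ACACA, which carboxylates it, had 0.39, and ME1, which supplies NADPH, had 0.58. ACACA was dim, with levels of -4.04 and -3.65 and probes between -0.09 and 0.86. Of the desaturases that put the first double bond into stearate, SCD had a ratio of 0.30 over 7 probes, all between 0.12 and 0.58, and SCD5 one of 0.94 from 2 probes. A further probe of SCD5, well above background only in the dark tissue, had a lower bound of 1.0. FADS2, the delta-6 desaturase, which in sebocytes makes sapienate, went from -2.29 to -0.94 and was 2.56-fold higher on its single probe.

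The elongases fell into 2 pairs. ELOVL7, which lengthens saturated fatty acids, went from -0.53 to 1.05 and was 3.0-fold higher, with 3 probes between 1.5 and 1.64. ELOVL1, which makes very long saturated chains for sphingolipids, went from -0.054 to 1.49 and was 2.91-fold higher, with 4 probes between 1.16 and 1.82. ELOVL6, which extends palmitate to stearate, had a ratio of 0.43 with 5 probes between 0.26 and 0.57, and ELOVL5, which works on polyunsaturated chains, one of 0.60 from 1 measured probe. The probes of ELOVL7 and ELOVL1 did not overlap those of ELOVL6 and ELOVL5.

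Among the ester genes FAR2 had the largest ratio. Fatty acyl-CoA reductases turn fatty acids into the fatty alcohols of wax esters, and FAR2 is known from sebaceous glands of the eyelid and skin, whereas FAR1 serves ether lipids in most tissues. FAR2 went from -3.79 to -0.55 and was 9.44-fold higher in the dark tissue, at place 94 from the top. Its probes had ratios of 3.84, 4.07 and 1.81, the last from a probe at -4.53 and -2.72. FAR1 had levels of -1.65 and -1.73 and a ratio of -0.08, with 3 probes between -0.15 and -0.03. SOAT1, which esterifies cholesterol with a fatty acid, went from -3.94 to -2.22 and was 3.28-fold higher, with probes at 1.65 and 1.78.

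Cholesterol synthesis differed little between the cows. The 11 genes found had a median log2 ratio of 0.14 and a range from -0.32 to 0.84, and 9 of the 11 differed by less than 1.5-fold, against 66.5% of all genes. SREBF1, which encodes the SREBP factor that favours fatty acid genes, was the lowest, at -0.32 from probes at -0.29 and -0.35. INSIG1, which holds SREBP back when sterol is plentiful, was at -0.11, level with DHCR7. The probes of INSIG1 differed in sign, at 0.22 and -0.44. SREBF2 was not analysed here. FDFT1, squalene synthase, was the highest at 0.84, with 3 probes between 0.73 and 1.04. MVD, which makes isopentenyl diphosphate, was the next at 0.68, from levels of -0.23 and 0.46. The genes before and after squalene lay closer to 0. IDI1 had a ratio of 0.33, FDPS 0.25, SQLE, the squalene epoxidase, 0.12, LSS, which closes the sterol rings, 0.14, and CYP51A1, the lanosterol demethylase, 0.29. DHCR7 (-0.10) and SC5D (0.10), which finish the sterol, had nearly equal levels in the tissues, 1.86 and 1.76 for DHCR7 and 0.20 and 0.30 for SC5D.

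Other genes of the same pathways were read from longer lists. Of 99 with a ratio, 20 (20.2%) were at least 2-fold higher in the dark tissue and 5 (5.05%) at least 2-fold lower, and their median was 0.15. Over all 8914 named genes with a ratio these shares were 9.86% and 6.47%, and the median was 0.065. The 25 sterol genes had a median of -0.06, with the squalene-derived steps NSDHL, MSMO1, HSD17B7 and EBP between -0.06 and 0.15. The 2 at least 2-fold higher were MVK, mevalonate kinase (2.43-fold), and the mitochondrial thiolase ACAT1 (2.61-fold). NPC2, which carries cholesterol out of the lysosome, was the 1 lower gene, from 3.53 to 1.33 (ratio -2.19).

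The longer list of sebaceous, ester and ceramide genes held the highest lower bound of the longer lists. DGAT2L6, a relative of DGAT2 and the wax synthases whose transcripts are known from skin, was read by 1 probe, well above background only in the dark tissue, where it had a level of -1.14. It was at least 24.9-fold higher there, at place 5 from the top. ACSBG1, which activates very long fatty acids, went from -2.57 to 0.95 and was 11.5-fold higher, with probes at 3.36 and 3.68. SULT2B1, the cholesterol sulfotransferase of the epidermis, was 5.22-fold higher, the carrier FABP7 3.81-fold, ABHD5, the activator of PNPLA2 that also serves ceramide synthesis, 3.53-fold, and the ceramide synthase CERS4 2.75-fold. The sebaceous duct keratin KRT79 had a ratio of 0.47, the melanocortin receptor MC5R of sebocytes was not well above background in either tissue, and CRABP1, which binds retinoic acid, was lower (ratio -2.52). In the fatty acid list ELOVL4, which makes the ultra-long chains of barrier ceramides, was 2.69-fold higher, the fatty acid transporter of the epidermis SLC27A4 2.07-fold, HSD17B12, which serves the elongases, 2.04-fold and MID1IP1, a relative of THRSP, 3.24-fold. SLC27A6 was lower, with a ratio of -2.20.

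Of 13 keratinocyte markers 9 were found, and 5 of these (55.6%) were at least 2-fold higher in the dark tissue, against 9.86% of all genes. They were KRT10, IVL, LORICRIN, TGM1 and TGM3, with ratios between 1.14 and 1.76. These are genes of the upper epidermis. The basal keratins KRT5 (-0.52) and KRT14 (-0.41) were not 2-fold higher. Neither were the desmosomal DSG1 (0.25) and DSC1 (0.50), which the upper epidermis makes too. The summed signal of the 9 was 565 in the light and 881 in the dark tissue, and each had a probe well above background in both. The part of these cells in the ratios of the elongases and ester genes was not tested.

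Of the longer adipocyte list, 5 of 22 genes (22.7%) were at least 2-fold higher, against 9.86% of all genes. These included the glycerol channel AQP7 (9.52-fold), the amino acid carrier SLC7A10 (6.54-fold) and the insulin-regulated glucose transporter SLC2A4 (5.34-fold). The others were the adiponectin receptor ADIPOR2 (3.17-fold) and the caveolar protein CAVIN1 (2.34-fold over 10 probes). The CAVIN1 probes differed by RefSeq transcript, from -0.37 to 1.28 for one and from 0.94 to 2.93 for the other. Its brightest probe had a ratio of 0.67. Muscle makes AQP7, SLC2A4 and CAVIN1 too. TRARG1, a partner of SLC2A4 in adipocytes, was lower, from 6.78 to 3.83 (ratio -2.95) on 1 probe. Its other probe passed the background limit in the dark tissue alone and pointed the other way, with a bound of 0.39, and with both probes averaged without a filter on dim probes the ratio was -0.2. The leptin receptor LEPR was above background in the light tissue alone, at least 2.10-fold lower in the dark tissue. The other genes of that list with a ratio lay between -0.98 for RBP4, a retinol carrier that adipocytes secrete, and 0.96 for the caveolar protein CAV1. In the droplet and triglyceride list 4 of 12 genes (33.3%) were at least 2-fold higher and 0 lower, against 9.86% and 6.47% of all genes. The higher ones were ABHD5, the droplet budding protein FITM1 of muscle (3.19-fold) and the acyltransferases AGPAT5 (3.0-fold) and AGPAT4 (2.25-fold).

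**Figure D3:**
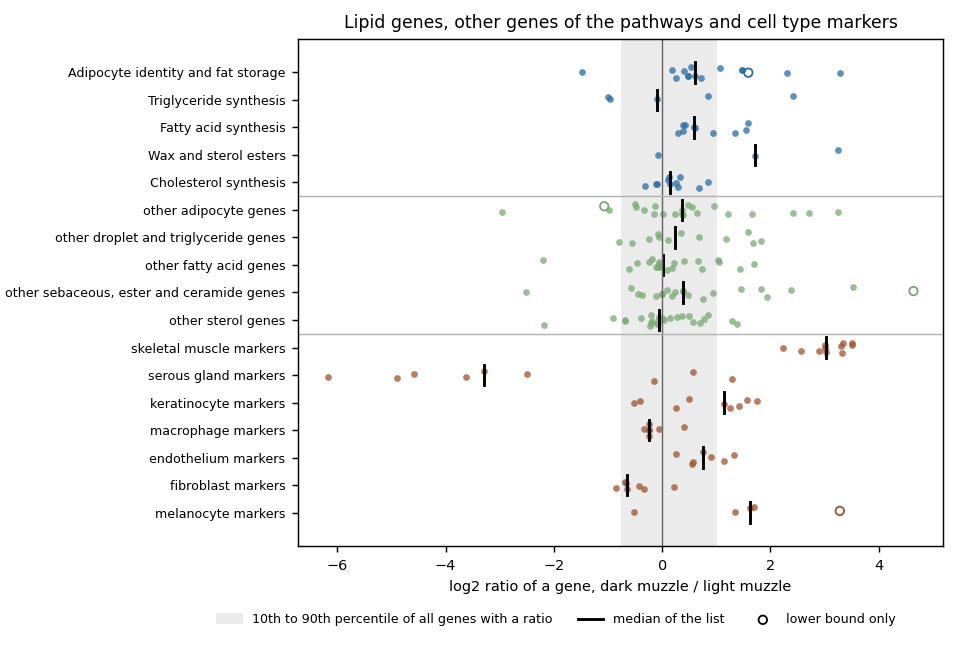
Log2 ratio (dark-muzzle over light-muzzle) of each gene with a ratio in the 5 role lists (blue), 5 longer pathway lists (green) and 7 cell type marker lists (brown), with the median of a list as a bar, open circles for lower bounds and the 10th to 90th percentile of all genes (-0.74 to 0.99) shaded. The cholesterol genes lie inside or close to the shaded band, and the muscle markers lie to the right of it.

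Most of the gland markers with a ratio were lower in the dark tissue. Of the 9 serous gland markers with a ratio, 6 were at least 2-fold lower in the dark tissue, from CA6 (-2.50) to MSMB (-6.18), 1 was higher, BPIFA1 (1.29), and the median was -3.29. The others with a ratio, SCGB1D (-0.15) and LPO (0.57), were within 2-fold. ODAM was above background in neither tissue. The summed signal of the serous gland markers was 666 in the light and 326 in the dark tissue. SCGB1D had the largest signal of the list in both tissues, so this sum does not give the size of the fall in the 6 lower markers. The lipid and other pathway genes at least 2-fold lower were CIDEC, THRSP, TRARG1, LEPR, SLC27A6, CRABP1 and NPC2. They are named because they were lower, so the direction they share with the gland markers is not a further result. Of these, CIDEC (-0.97), THRSP (-0.78) and LEPR (-0.48) were within 2-fold under normexp background correction, and CIDEC (-0.73), TRARG1 (-0.2) and LEPR (-0.6) without a filter on dim probes. The part of the glands in their ratios was not tested. The fibroblast markers had a median of -0.65, with summed signals of 85.0 and 56.7. The 5 melanocyte markers found of 8 had a median of 1.62, with summed signals of 1.73 and 4.23. TYRP1 was above background only in the dark tissue. DCT went the other way, with a ratio of -0.52 on 1 measured probe. Its other probe, above background only in the dark tissue, had a bound of 0.54.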

How the data were processed

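The authors labelled muzzle RNA of each cow with Cy3, hybridised it to an Agilent bovine array and extracted the scan with Agilent Feature Extraction 10.7.3.1. The deposited processed signal is an intensity, background-subtracted and detrended within the array, and was not normalized between arrays. The authors' deposited log2 table, made in GeneSpring, lay within 0.119 (light-muzzle) and 0.173 (dark-muzzle) of this signal in log2 minus the 75th percentile of the array, and was used as an alternative.

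From the processed signal, log2 levels were shifted by the 75th percentile of noncontrol spots (intensities of 1143.7 and 1136.9). Of the 43803 noncontrol spots of an array, 78.8% (light-muzzle) and 81.9% (dark-muzzle) were well above background, and 0 were saturated. Spots flagged as outliers on either array (21) were dropped and those of one probe averaged, giving 43639 probes. Of these, 20587 took a symbol through RefSeq accessions of the ARS-UCD2.0 table, without coordinates. Ratios of probes well above background in both cows were averaged per gene. A gene without such a probe was given its largest lower bound, the bright level against the higher of the dim level and that array's lowest level that was well above background. With 1 array per group no test was made. A summed signal adds the mean linear signal of each gene of a list, over all its probes, in units of the 75th percentile.

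The genes and lists were chosen with earlier results of these data known. All 57 genes were accounted for. Of the longer lists, genes at least 2-fold apart were named, and others were named for their known role after their values were seen. Alternatives were quantile and loess (span 0.3) normalization, a 50th percentile shift, normexp (offset 50, on the median pixel signal and local background), no filter on dim probes, no lower bounds, the deposited table, the brightest probe of a gene, and thresholds of 1.5-fold and 3-fold. The calling of genes was tested on simulated data. Python 3.11.15, numpy 2.4.6, pandas 2.3.3, R 4.3.3 and limma 3.58.1 were used. The RT-PCR and in situ hybridization data were not analysed here.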

Additional observations from a re-analysis of the deposited data

How the results depend on the processing

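The 12 higher and 2 lower lipid genes were the same 14 under quantile normalization, loess normalization, the 50th percentile shift, the deposited table and the brightest probe of a gene. The deposited table holds nearly the same levels and the 50th percentile shift moves all ratios equally, so neither is an independent check. Normexp background correction kept 11 of the 14 and lost LEP (0.49), CIDEC (-0.97) and THRSP (-0.78), so that 0 genes were lower, and it brought FAR2 to 2.44 and CD36 to 2.49. Without a filter on dim probes CIDEC was lost (-0.73), which left 1 lower gene, and LIPE (1.24), SCD5 (1.52) and MOGAT1 were gained. Without lower bounds LEP was lost. At 1.5-fold 19 genes were higher, and at 3-fold 6 were higher and 0 lower.

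The median of the cholesterol genes stayed between 0.09 and 0.14 over the other settings, that of the fatty acid genes between 0.51 and 0.62 and that of the storage genes between 0.49 and 0.72. The median of the triglyceride genes, -0.10 over 5 genes, was -0.36 under quantile normalization and 0.41 without a filter on dim probes. That of the ester genes, 1.71 over 3 genes, was 1.12 under normexp. Without a filter on dim probes 3 of the other pathway genes were lower, in place of 5. With the brightest probe CEBPA (-0.44) and CEBPB (-0.49) turned negative, THRSP was -2.91 and CYP51A1 changed sign, whereas quantile normalization changed the sign of LSS and normexp that of CEBPB. DGAT2L6 had a lower bound of 2.79 under normexp. A probe level near -5.8, the lowest that was well above background, limits the ratio that can be read. The cause of these shifts was not tested.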
